A study of Mus musculus with 8 samples.

Results

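The 9 genes described here cover the synthesis, breakdown, transport and reception of retinoic acid in primary lung fibroblasts (pFBs). They are the retinal dehydrogenases *Aldh1a1*, *Aldh1a2* and *Aldh1a3*, the retinal reductase *Dhrs3*, the breakdown enzyme *Cyp26b1*, the carriers *Crabp1* and *Crabp2*, and the receptors *Rarb* and *Rarg*. They are the entries of these names among the 54532 entries of the deposited count table, each found once. Retinoic acid is made from retinol (vitamin A) in successive oxidations, and it acts in the nucleus. The retinal dehydrogenases carry out the last and irreversible step, from retinal to retinoic acid. CRABP proteins carry retinoic acid in the cytosol, CYP26 enzymes break it down, and the retinoic acid receptors (RARs), bound to DNA with a retinoid X receptor (RXR), switch their target genes with it. In the lung this signal is known for its role in airway branching and in the formation of alveoli, and lipid-filled fibroblasts store retinol there.

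The 9 genes were selected on a measured value, since they were put together because *Aldh1a2* has one of the largest falls in HOMO counts. Their differences between the genotypes are therefore given as a description, without a p-value, and nothing rests on how many of them differ. The pFBs came from minced lungs of female mice, labelled as C57/black, and were grown in DMEM with fetal bovine serum without a treatment. WT cells are wild type. HOMO cells are from mice homozygous for a human *IGFBP5* (hIGFBP5) transgene, which was inserted with CRISPR/Cas9 and is expressed ubiquitously, so that the lungs and the cultured, passaged pFBs both carried it. Each genotype has 4 libraries, named WT1 to WT4 and HOMO1 to HOMO4 as labelled, and n counts libraries. The age of the mice and how many mice gave the cells are not given in the sources used here. Some libraries may therefore not be separate mice, and the spread between those may be technical.

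Between 17236521 and 31987790 reads were counted per library, and 3 counts corresponded to 0.0907 to 0.172 CPM (counts scaled to library size by edgeR's TMM method), a floor for counting error only. Some libraries were near-identical, namely WT1 with WT2, HOMO1 with HOMO2, and HOMO3 with HOMO4. Their biological coefficient of variation was 4.71 to 7.64%, where other pairs within a genotype had 29.7 to 55.6%, which leaves 5 separate units. The human transgene itself was not analysed here. Mouse *Igfbp5* was counted 130, 225, 7130 and 112 times in the WT libraries (WT1 to WT4) and 24, 37, 37 and 57 times in HOMO1 to HOMO4, so WT3 stood apart in it. The genotypes did not overlap in mouse *Igfbp5*, with 4.33 CPM in the lowest WT library (WT4) and 2.85 CPM in the highest HOMO library (HOMO4). Among the 4 WT libraries, WT3 also had the lowest level in 4 of the 9 retinoid genes and the highest in 3. In cells grown in bulk, fewer cells of a type and less RNA per cell cannot be told apart.

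RARs with RXR bind pairs of a hexamer with the same orientation, called direct repeats. The promoter windows of the genes are shown first because *Rarb* is both a receptor and a well-known target of retinoic acid. RefSeq windows on GRCm38.p6, from 250 bases before to 50 bases after an annotated start, were at hand for 7 of the 9 genes (11 windows). *Aldh1a3* and *Crabp2* had none. Both strands were searched for the hexamers AGGTCA, its variant AGTTCA, the further variant GGGTCA, and lastly the variant GGTTCA, and for pairs of these on one strand with spacers of 1 (DR1), 2 (DR2) or 5 (DR5) bases, so that every repeat also counts as 2 hexamers. Of the 11 windows, the *Rarb* window alone held a direct repeat. It was a DR5, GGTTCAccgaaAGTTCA, with the hexamers in capitals, at chr14:16575513-16575529 on the minus strand, 53 to 37 bases before the start. A DR5 was found in 32 of all 32851 windows (0.0974%), a DR1 in 0.222% and a DR2 in 0.268%, so each is rare. A hexamer alone was found in 43.7% of windows, and here it was found 3 times in the *Rarb* window, once in 1 window of *Rarg* and once in 1 window of *Aldh1a1*. The windows of *Rarb*, with the DR5 in capitals (chr14:16575427-16575726, minus strand), and of *Aldh1a2*, the gene with the largest difference, without a match (chr9:71215539-71215838, plus strand), read 5′ to 3′:
Rarb: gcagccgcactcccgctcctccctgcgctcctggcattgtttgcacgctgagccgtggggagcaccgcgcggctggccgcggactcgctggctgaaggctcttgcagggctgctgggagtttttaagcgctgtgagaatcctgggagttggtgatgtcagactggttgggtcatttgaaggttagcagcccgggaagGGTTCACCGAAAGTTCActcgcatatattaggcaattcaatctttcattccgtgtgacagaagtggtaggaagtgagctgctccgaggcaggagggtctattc
Aldh1a2: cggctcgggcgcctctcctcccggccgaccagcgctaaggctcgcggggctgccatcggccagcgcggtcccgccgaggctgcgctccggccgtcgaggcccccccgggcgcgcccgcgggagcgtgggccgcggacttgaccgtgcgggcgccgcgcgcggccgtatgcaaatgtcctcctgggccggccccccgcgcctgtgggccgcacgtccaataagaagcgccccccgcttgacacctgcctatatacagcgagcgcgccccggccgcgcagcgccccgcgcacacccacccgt
These letters describe the windows, and a match is not a measured binding site.

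The 3 retinal dehydrogenases differed between the genotypes in opposite directions. *Aldh1a2* was close to the floor in HOMO, while *Aldh1a1* and *Aldh1a3* were higher in HOMO, and none of the 3 overlapped between WT and HOMO libraries. *Aldh1a2*, the main source of retinoic acid in the early embryo, lies on the plus strand of chromosome 9 from 71215789 to 71296243 (GRCm38, also called mm10). It was counted 3589, 4800, 177 and 1042 times in the WT libraries (WT1 to WT4) and 5, 7, 26 and 3 times in HOMO1 to HOMO4. These counts are 202, 206, 10.1 and 40.3 CPM in WT and 0.223, 0.212, 1.32 and 0.150 CPM in HOMO. The level in WT was uneven, with the near-identical WT1 and WT2 on top and a ratio of 20.3 between the highest and the lowest library. Even so, the lowest WT library (WT3) stood 7.70-fold above the highest HOMO library (HOMO3). WT averaged 114 ± 104 CPM and HOMO averaged 0.475 ± 0.562 CPM (SD, n = 4 each), and the log2 fold change fitted by edgeR was −7.96 (SE 1.23). With WT1 and WT2 counted as 1 unit, the WT mean became 84.7 CPM. Over 15 alternative fits the log2 fold change lay between −9.14, without HOMO3, and −7.51, with near-identical libraries summed. Its exons overlap no other gene in GENCODE M21.

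*Aldh1a1* (chromosome 19 from 20492715 to 20643465, plus strand), which also oxidises retinal, was on average the most abundant of the 3 per length. Its levels were 266, 322, 159 and 521 CPM in WT1 to WT4 and 1301, 1325, 575 and 661 CPM in HOMO1 to HOMO4. The genotypes were parted narrowly, since the lowest HOMO library (HOMO3) was 1.11-fold above the highest WT library (WT4). WT averaged 317 ± 152 CPM and HOMO averaged 965 ± 403 CPM (SD, n = 4 each), and edgeR fitted a log2 fold change of 1.61 (SE 0.42). HOMO1 and HOMO2 stood 2.12-fold above HOMO3 and HOMO4. Leaving out each library gave log2 fold changes from 1.38 (without WT3) to 1.96 (without WT4). *Aldh1a1* and its neighbour *Aldh1a7* share 3.06% of the 50-base words of the *Aldh1a1* exons (151 of 4934), so a small part of their reads could be assigned to either, whereas *Aldh1a1*, *Aldh1a2* and *Aldh1a3* share 0 such words.

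*Aldh1a3* (chromosome 7 from 66390890 to 66427517, minus strand), the third enzyme of the family, was low in WT. It was counted 37, 62, 5 and 133 times in the WT libraries (WT1 to WT4) and 161, 236, 1005 and 940 times in HOMO1 to HOMO4. In CPM these are 2.08, 2.66, 0.286 and 5.14 in WT and 7.17, 7.13, 50.9 and 47.0 in HOMO. The level was uneven within HOMO, where HOMO3 and HOMO4 stood 6.85-fold above HOMO1 and HOMO2, the reverse of the order in *Aldh1a1*. WT averaged 2.54 ± 2.01 CPM and HOMO averaged 28.1 ± 24.2 CPM (SD, n = 4 each). The fitted log2 fold change was 3.44 (SE 0.93), with a ratio of 1.39 between the lowest HOMO and the highest WT library. Without single libraries the log2 fold change ranged from 2.99 (without HOMO3) to 4.04 (without WT4). In WT3 the median tested gene of chromosome 7 was 0.36 log2 units above the mean of the other WT libraries. This is the opposite direction to the low *Aldh1a3* level of WT3, and how these relate was not tested.

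**Figure D1:**
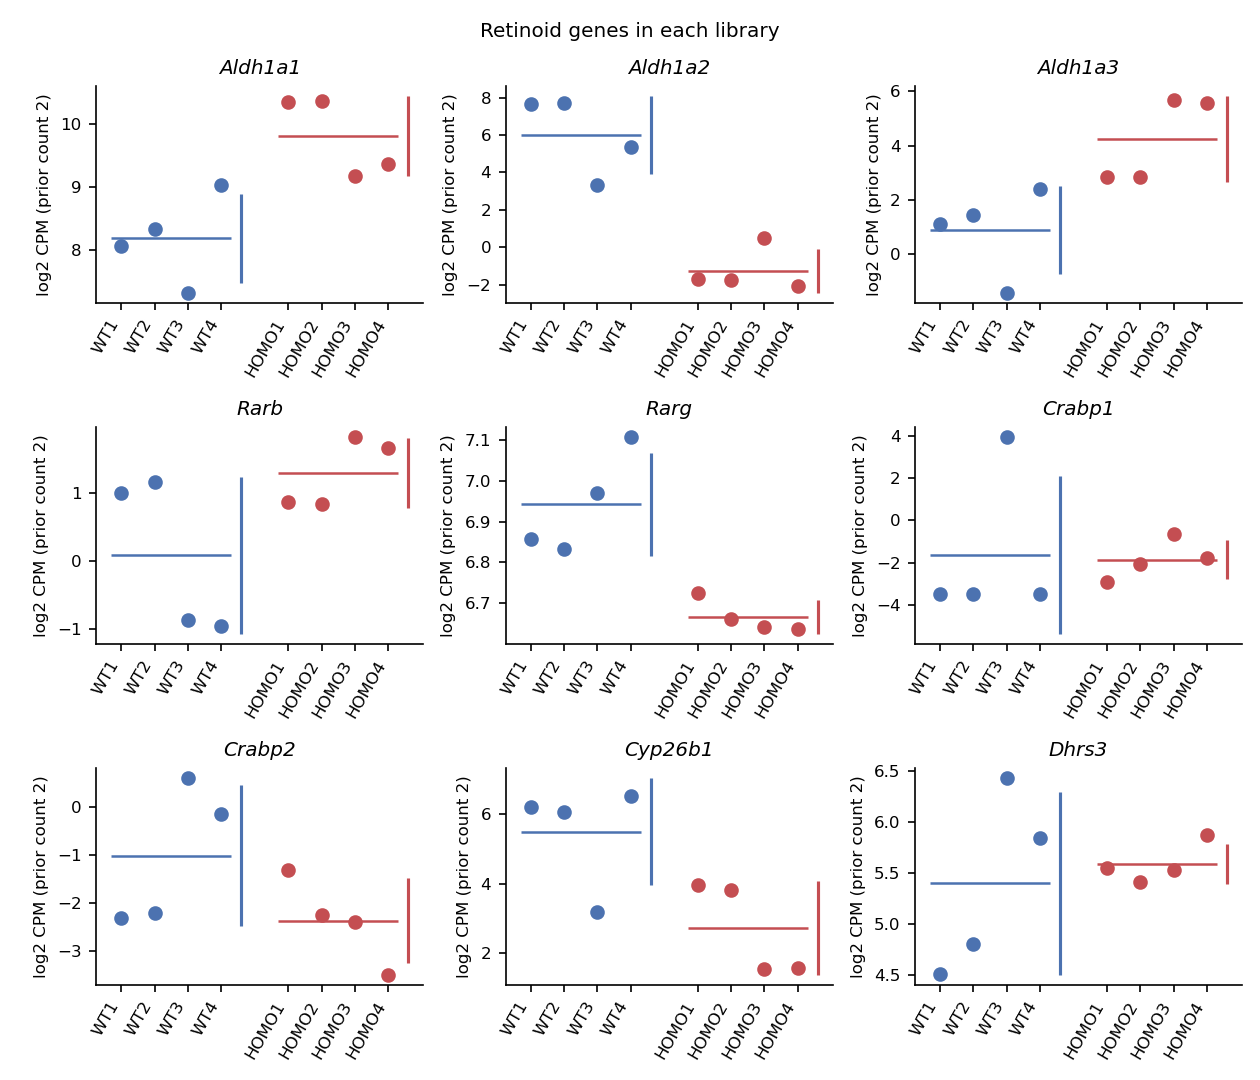
Level of each of the 9 genes in each library, as log2 CPM with a prior count of 2 (vertical axes differ between panels); horizontal lines are means and vertical lines span 1 SD to either side (n = 4). *Aldh1a2* lies between 3.35 and 7.68 in WT and between −2.06 and 0.49 in HOMO, and the near-identical libraries HOMO1 and HOMO2, and HOMO3 and HOMO4, lie next to each other in *Aldh1a1*, *Aldh1a3* and *Cyp26b1*.

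The makeup of the enzyme family was compared per length, as CPM per kb of exon (RPKM), because the genes differ in length. In WT the mean level of *Aldh1a1* was 64.2 ± 30.7 RPKM, that of *Aldh1a2* 50.5 ± 45.8 RPKM and that of *Aldh1a3* 0.550 RPKM, and the first 2 do not differ beyond their spread. In HOMO they were 196 ± 81.6 RPKM for *Aldh1a1*, 6.08 ± 5.24 RPKM for *Aldh1a3* and 0.210 RPKM for *Aldh1a2* (SD, n = 4 each). By mean level *Aldh1a2* was second of the family in WT and last in HOMO. Its share of the summed level was 62.1, 58.0, 12.2 and 14.3% in WT1 to WT4 and 0.0371, 0.0346, 0.454 and 0.0460% in HOMO1 to HOMO4. *Aldh1a1* was ahead of it in WT3 (87.6%) and WT4 (84.8%). Which enzyme led in WT1 and WT2 depended on the length used. With the longest transcript in place of the union of exons, *Aldh1a2* made up 44.0% in WT1 and 39.8% in WT2 and *Aldh1a1* led in all 4 WT libraries. In HOMO *Aldh1a1* made up 99.4, 99.4, 90.9 and 92.9%, and *Aldh1a3* filled most of the rest, 8.60% in HOMO3 and 7.07% in HOMO4. The summed level was 143, 157, 36.7 and 124 RPKM in WT1 to WT4 and 265, 270.0, 128 and 144 RPKM in HOMO1 to HOMO4. It overlapped between the genotypes (115 ± 54.0 in WT and 202 ± 76.2 RPKM in HOMO, SD, n = 4 each).

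**Figure D2:**
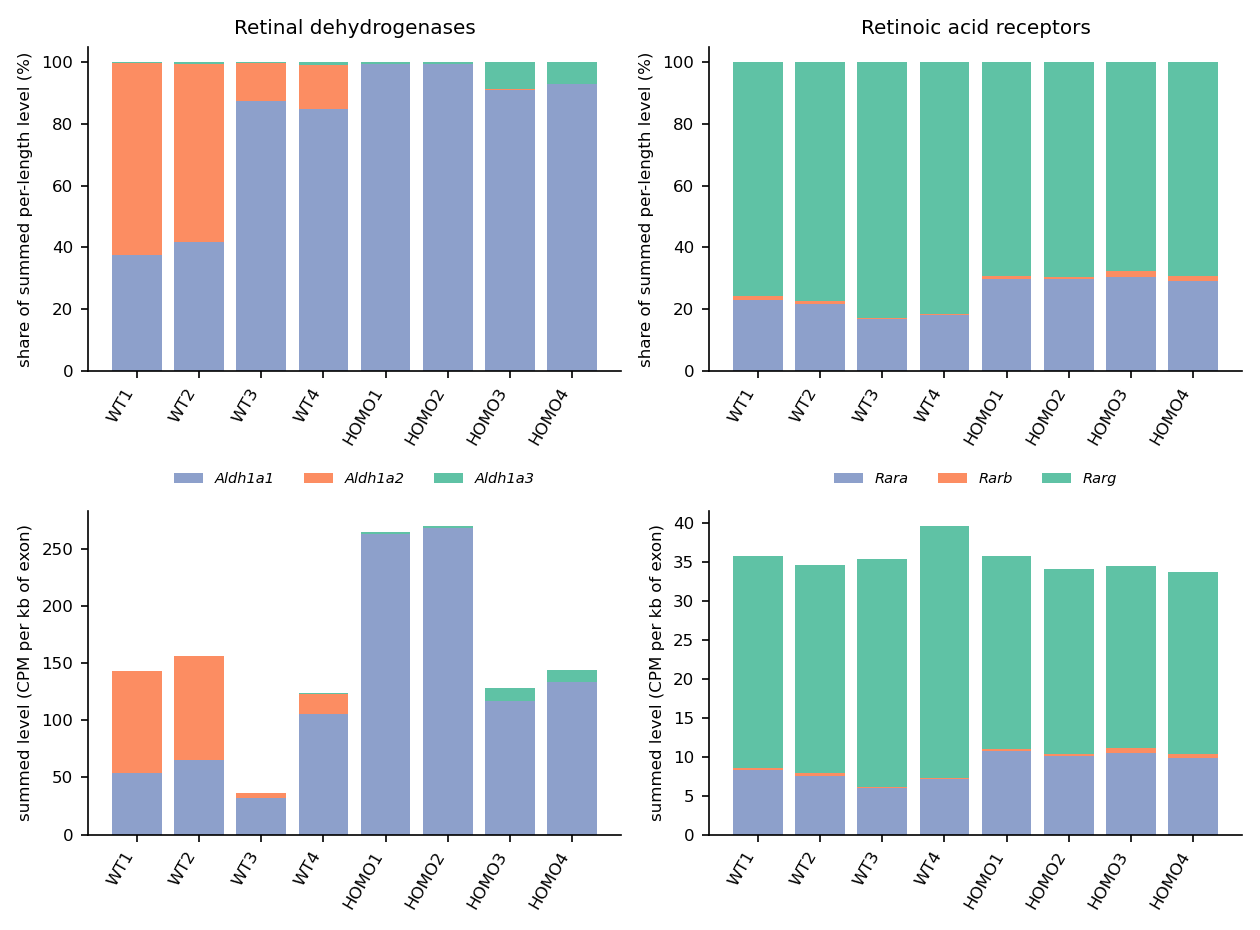
Makeup of the retinal dehydrogenases (left) and the retinoic acid receptors (right) in each library, above as the share of the summed per-length level in percent and below as the summed level in CPM per kb of exon. *Aldh1a2* is visible in the 4 WT bars, from 12.2 to 62.1%, and is under 1% in the HOMO bars, whereas *Rarg* leads the receptors in all 8 bars.

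*Dhrs3*, which turns retinal back into retinol and so works against the synthesis of retinoic acid, lies on chromosome 4 from 144892827 to 144928209 (plus strand). Its levels were 22.8, 27.9, 86.5 and 57.3 CPM in WT1 to WT4 and 46.8, 42.6, 46.2 and 58.5 CPM in HOMO1 to HOMO4. The HOMO libraries lay within a narrow band inside the wide range of WT. The means were 48.6 ± 29.5 CPM in WT and 48.5 ± 6.91 CPM in HOMO (SD, n = 4 each). The fitted log2 fold change was −0.00 (SE 0.39), whose sign was positive in part of the alternatives. It ranged from −0.24 without WT1 to 0.86 in limma-voom with sample quality weights, and was 0.43 without WT3. In WT4 the median tested gene of chromosome 4 was 0.36 log2 units above the mean of the other WT libraries.

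*Cyp26b1* (chromosome 6 from 84571414 to 84593908, minus strand), one of the enzymes that break down retinoic acid, was lower in HOMO on average. It was counted 1319, 1577, 159 and 2381 times in the WT libraries (WT1 to WT4) and 352, 468, 56 and 58 times in HOMO1 to HOMO4. The levels were 74.1, 67.6, 9.11 and 92.1 CPM in WT and 15.7, 14.1, 2.83 and 2.90 CPM in HOMO. WT3 alone made the genotypes overlap, as its level lies below those of HOMO1 and HOMO2, and the other 3 WT libraries stood above every HOMO library. The mean was 60.7 ± 35.9 CPM in WT and 8.89 ± 6.98 CPM in HOMO (SD, n = 4 each). The fitted log2 fold change was −2.77 (SE 0.80), or −3.12 (SE 0.64) without WT3. HOMO1 and HOMO2 stood 5.20-fold above HOMO3 and HOMO4. The other members of the family were close to the floor, with at most 3 counts of *Cyp26a1* and at most 5 of *Cyp26c1* in any library, so *Cyp26b1* was the one breakdown enzyme of the 3 that could be measured at this depth.

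The carriers were scarce. *Crabp1* (chromosome 9 from 54764748 to 54773110, plus strand) was counted 0, 0, 268 and 0 times in the WT libraries (WT1 to WT4) and 1, 5, 11 and 4 times in HOMO1 to HOMO4. Nearly all of its reads were therefore those of WT3, at 15.4 CPM, and the counts of 0 allow up to 0.169, 0.129 and 0.116 CPM in WT1, WT2 and WT4. *Crabp2* (chromosome 3 from 87948666 to 87953376, plus strand) was counted 2, 3, 25 and 21 times in the WT libraries (WT1 to WT4) and 7, 4, 2 and 0 times in HOMO1 to HOMO4. WT3 and WT4 held most of its reads, and WT1 and WT2 lay among the HOMO libraries. In WT3 the median tested gene of chromosome 3 was 0.37 log2 units above the mean of the other WT libraries, and its part in the *Crabp2* level was not tested. Both genes were below the filter of the fit and have no fitted fold change.

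The receptors lay far apart in level, and neither was called. *Rarg* (chromosome 15 from 102234938 to 102257517, minus strand) was the most abundant RAR gene in every library. Its levels were 116, 114, 125 and 138 CPM in WT1 to WT4 and 106, 101, 99.8 and 99.3 CPM in HOMO1 to HOMO4. The genotypes did not overlap, but they were close, at 123 ± 11.0 CPM in WT and 101 ± 2.93 CPM in HOMO (SD, n = 4 each). The fitted log2 fold change was −0.28 (SE 0.11). *Rarb* (chromosome 14 from 16430839 to 16819156, minus strand), the receptor gene whose window holds the DR5, was counted 34, 50, 8 and 11 times in the WT libraries (WT1 to WT4) and 39, 56, 68 and 61 times in HOMO1 to HOMO4. In CPM these are 1.91, 2.14, 0.458 and 0.425 in WT and 1.74, 1.69, 3.44 and 3.05 in HOMO. WT1 and WT2 lay within the HOMO range, and WT3 and WT4 lay below it. The means were 1.23 ± 0.920 and 2.48 ± 0.900 CPM (SD, n = 4 each), with a log2 fold change of 1.00 (SE 0.59) that became 0.33 in limma-voom with sample weights and 1.41 without WT2. *Rarb* shares 38.4% of its exon bases (2020) with *Top2b* and *Gm48162* on the opposite strand, and *Top2b* is abundant at 156 to 210 CPM in WT and 159 to 176 CPM in HOMO. Whether the counting used strand is not stated, so reads of *Rarb* and *Top2b* over these bases could not be told apart. *Top2b* itself had a log2 fold change of −0.13 (SE 0.14, edgeR adjusted p = 0.549).

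Set beside *Rara*, the third receptor gene of the family, *Rarg* made up 75.9, 77.2, 82.9 and 81.7% of the summed per-length level of the RARs in WT1 to WT4 and 69.2, 69.5, 67.8 and 69.2% in HOMO1 to HOMO4. *Rara* made up 23.0, 21.6, 16.8 and 18.1% in WT and 29.8, 29.6, 30.3 and 29.1% in HOMO, while the mean share of *Rarb* was 0.660 and 1.37%. The shares of *Rarg* and *Rara* did not overlap between the genotypes. The sum of the 3 overlapped between the genotypes, at 36.4 ± 2.22 RPKM in WT and 34.5 ± 0.929 RPKM in HOMO (SD, n = 4 each).

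Ordered by mean level per length, the 9 genes ran in WT from *Aldh1a1* and *Aldh1a2* over *Rarg* (28.9 ± 2.58 RPKM), *Dhrs3* (16.6 ± 10.1) and *Cyp26b1* (11.3 ± 6.71) to *Crabp1* (4.79, from WT3 alone), *Aldh1a3*, *Crabp2* (0.470) and *Rarb* (0.234 RPKM). In HOMO *Aldh1a1* was followed by *Rarg* (23.8), *Dhrs3* (16.6), *Aldh1a3*, *Cyp26b1* (1.66), *Rarb* (0.471), *Crabp1* (0.297), *Aldh1a2* and *Crabp2* (0.101 RPKM). In WT the libraries of each gene overlapped with those of the next from *Aldh1a1* down to *Cyp26b1*. In HOMO *Aldh1a1*, *Rarg*, *Dhrs3* and *Aldh1a3* followed each other without overlap, while *Aldh1a3* and *Cyp26b1* overlapped. Of the 9 genes, 7 passed edgeR's filter, and 4 of these (*Aldh1a1*, *Aldh1a2*, *Aldh1a3* and *Rarg*) did not overlap between the genotypes, where 27.3% of all 14150 tested genes did not. With a threshold of 0.05 on the adjusted p and of 0.6 on the size of the log2 fold change, 3 of the 7 were called as differentially expressed genes (DEGs), against 12.1% of all tested genes. Those higher in HOMO were *Aldh1a1* and *Aldh1a3* (5.94% of all tested genes were called as higher), and the one lower in HOMO was *Aldh1a2* (6.18% were called as lower). The rule used this contrast, so nothing is read from these counts. The median log2 fold change of the 7 was −0.00, and that of all tested genes −0.04.

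The calls of *Aldh1a1* and *Aldh1a3* depended on single libraries. *Aldh1a1* was called in 3 of the 8 fits that leave out a library, those without WT3, WT4 or HOMO3, and *Aldh1a3* in 2, those without WT3 or WT4. *Aldh1a2* was called in all 8. *Cyp26b1* was called without WT3 and in none of the other 7. Leaving out a library of a near-identical pair keeps its partner, and the WT libraries with the highest *Aldh1a2* levels are such a pair. The calls of *Aldh1a2* in these fits are therefore not independent checks. As the genes were selected on this contrast, the calls and counts of this paragraph describe the fits only. With the near-identical pairs summed, which leaves 3 WT and 2 HOMO units, none of the 9 genes was called by edgeR, while 3 had an unadjusted p under 0.05, and over all tested genes 0 were called and 2057 had such a p.

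To place the 9 genes in the pathway, 49 further genes of retinol uptake, conversion and response were counted. Of these, 29 were tested and 6 were called (20.7%), 3 higher and 3 lower in HOMO, against 12.1% of all tested genes, and their median log2 fold change was −0.01. The list was drawn up with earlier results of these data known. Among the 10 genes of retinol uptake and storage, 3 were tested and 1 was called. *Lpl*, the lipoprotein lipase, which also frees retinyl esters from lipoproteins, was measured at 21.6, 28.7, 175 and 66.0 CPM in WT1 to WT4 and 1652, 1702, 878 and 901 CPM in HOMO1 to HOMO4. Its log2 fold change was 4.14 (SE 0.70, edgeR adjusted p = 0.00973). It was called in each of the 8 fits that leave out a library, but leaving out 1 of a near-identical pair keeps the other. With the pairs summed the log2 fold change of *Lpl* was 3.88 (edgeR adjusted p = 0.235), and none of the wider genes was called. *Lrat*, which makes retinyl esters for storage, had 0 counts in all 8 libraries, and *Stra6*, the receptor for retinol-binding protein, had at most 15 counts in a library.

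Of the 12 genes that convert retinol and retinal into each other, 9 were tested and 1 was called. *Rdh10*, the dehydrogenase that makes retinal from retinol in the step before the ALDH1A enzymes, was measured at 12.6, 12.3, 17.9 and 17.7 CPM in WT1 to WT4 and 9.62, 9.52, 9.26 and 8.46 CPM in HOMO1 to HOMO4. It fell in HOMO without overlap, by 0.71 on the log2 scale (SE 0.19, edgeR adjusted p = 0.0424), a call that was lost without WT2, WT4 or any 1 of the HOMO libraries (log2 fold changes from −0.80 to −0.63). *Aldh1a7*, a close relative of *Aldh1a1* next to it on chromosome 19, was measured at 3.37, 5.14, 11.1 and 22.5 CPM in WT and 1.87, 1.63, 4.56 and 3.95 CPM in HOMO. Its log2 fold change of −1.82 (SE 0.63, edgeR adjusted p = 0.0868) was not called, and the genotypes overlapped.

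None of the 10 tested genes for receptors, the alternative carrier and coregulators was called. *Rara* was measured at 36.0, 32.6, 26.1 and 31.2 CPM in WT1 to WT4 and 46.7, 44.1, 45.8 and 42.7 CPM in HOMO1 to HOMO4, without overlap, and had an adjusted p below the threshold with a fold change under it (log2 fold change 0.51, SE 0.13, edgeR adjusted p = 0.0395). The same held for *Rxrb*, a partner of the RARs (0.52, SE 0.14, edgeR adjusted p = 0.0387), which was called without WT3 at 0.61. *Rxra*, the more abundant partner, was measured at 123 CPM in WT and 128 CPM in HOMO on average (0.06, SE 0.15, edgeR adjusted p = 0.832), and *Rxrg* had 0 counts in all 8 libraries.

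Of the 12 genes that retinoic acid induces in many cells, 6 were tested and 4 were called, against 12.1% of all tested genes, and they did not share a direction. The homeobox genes *Meis1* and *Meis2* rose in HOMO without overlap. *Meis1* was measured at 74.5, 77.4, 38.3 and 62.9 CPM in WT and 150.1, 155, 119 and 117 CPM in HOMO (log2 fold change 1.10, SE 0.23, edgeR adjusted p = 0.0194). *Meis2* was measured at 26.5, 24.2, 13.8 and 34.5 CPM in WT and 62.9, 61.9, 66.4 and 55.6 CPM in HOMO (log2 fold change 1.32, SE 0.25, edgeR adjusted p = 0.0142). Both calls were lost without HOMO1 or HOMO2, where the log2 fold changes were 1.05 and 1.03 for *Meis1* and 1.31 and 1.32 for *Meis2*. *Tgm2*, the tissue transglutaminase, fell from 165, 175, 335 and 191 CPM in WT to 119, 110, 90.2 and 118 CPM in HOMO. Its log2 fold change of −0.99 (SE 0.24, edgeR adjusted p = 0.0319) lost its call without any 1 of the HOMO libraries (−1.03 to −0.90). *Rarres1*, named as a gene that responds to retinoic acid receptors, fell as well. It was measured at 64.9, 73.9, 5.38 and 56.5 CPM in WT and 6.15, 5.38, 8.15 and 8.11 CPM in HOMO, so that WT3 lay with the HOMO libraries and the other WT libraries were far above them. Its log2 fold change was −2.85 (SE 0.66, edgeR adjusted p = 0.0268), or −3.23 without WT3, and the call was lost without WT2 or any 1 of the HOMO libraries (−2.94 to −2.61). *Nrip1*, a corepressor of nuclear receptors, had a log2 fold change of 0.82 (SE 0.25, edgeR adjusted p = 0.0643) and, among the fits that leave out a library, was called in the one without WT3 (0.63). *Hoxb1* had 0 counts in all 8 libraries. With near-identical pairs summed, none of the 4 called genes kept its call. The edgeR adjusted p was then 0.308 for *Meis1*, 0.326 for *Meis2*, 0.349 for *Tgm2* and 0.379 for *Rarres1*.

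**Figure D3:**
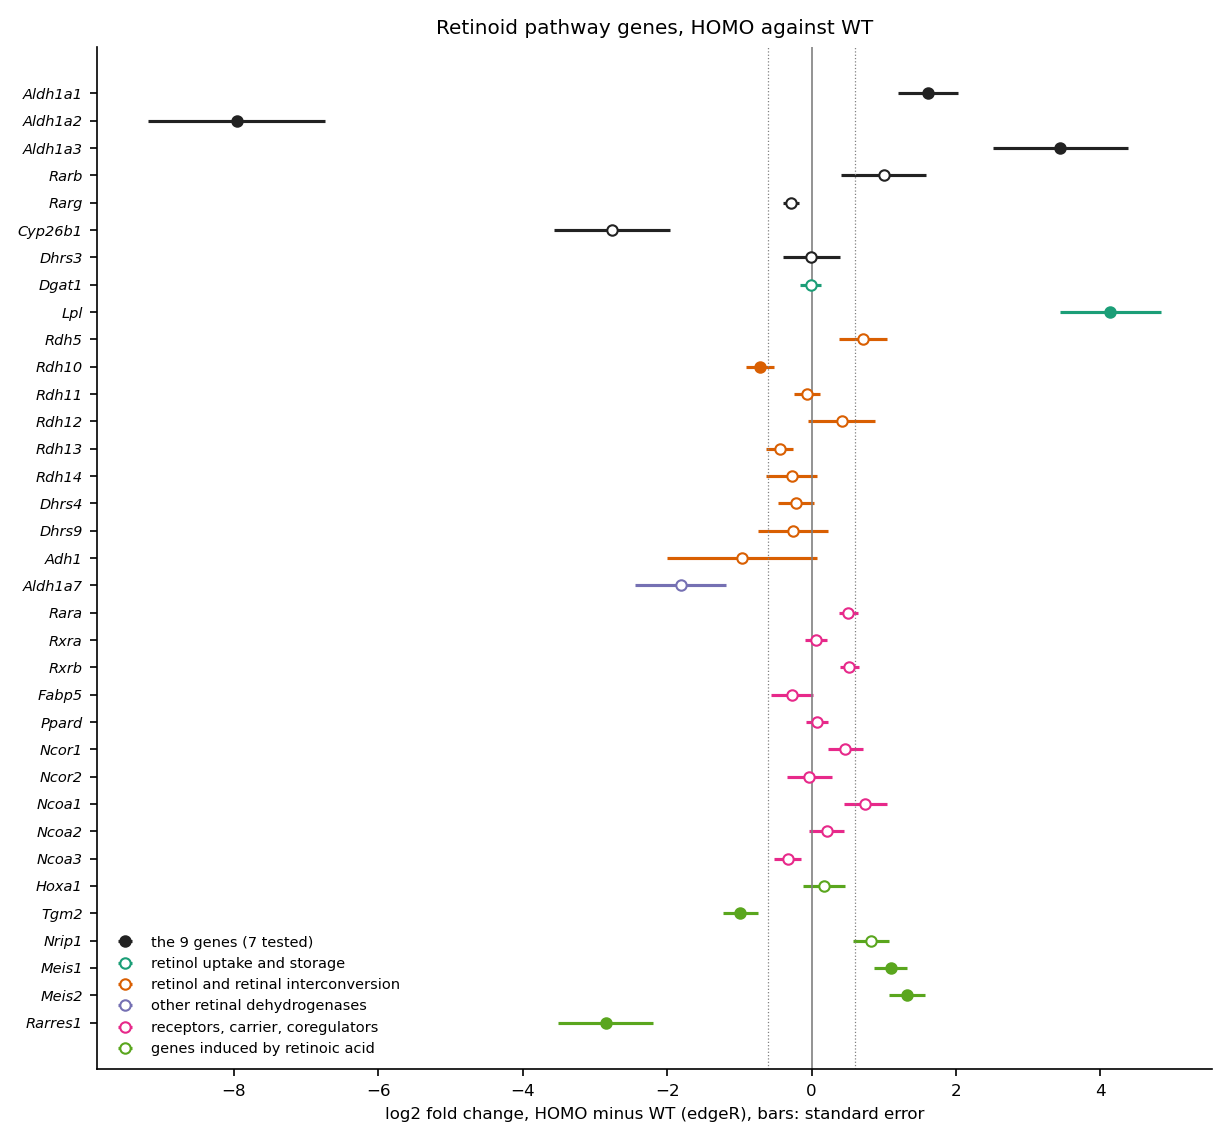
Log2 fold change of HOMO against WT with its SE (edgeR) for the 7 tested genes of the 9 and the tested genes of the wider list that are reported here, coloured by role, with filled points for called genes and dotted lines at −0.6 and 0.6. *Aldh1a2* lies at −7.96, far to the left of the others, and *Lpl* at 4.14 farthest to the right.

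The genes whose pattern over the 8 libraries was most like that of *Aldh1a2* were named by the smallest root mean square difference in log2 CPM after each gene's mean was taken away. They were *Glipr1* (1.47), *Epha3* (1.49), *Tns4* (1.51), *Angpt2* (1.61) and *Nipal1* (1.63). *Glipr1* was measured at 171, 183, 16.4 and 188 CPM in WT1 to WT4 and 0.668, 0.695, 3.44 and 6.11 CPM in HOMO1 to HOMO4. *Angpt2*, which encodes angiopoietin 2, was measured at 192, 248, 46.9 and 134 CPM in WT and 2.36, 2.66, 7.85 and 9.71 CPM in HOMO. In both, as in *Aldh1a2*, WT3 was the lowest WT library, and HOMO1 and HOMO2 lay below HOMO3. *Epha3*, a receptor for ephrins, was measured at 33.3 and 35.8 CPM in WT1 and WT2 and 2.06 and 2.09 CPM in WT3 and WT4. Even the closest of the tested genes was thus more than 1 log2 unit away from *Aldh1a2* on this measure. Among the tested genes of the 9, *Cyp26b1* was the closest to *Aldh1a2*, at 2.72, and *Aldh1a3* the farthest, at 5.47. The smallest difference of any pair among them was that of *Rarg* and *Dhrs3*, at 0.56. The measure is also small for genes that vary little, so this value does not show a shared pattern. *Rarg* was lower in HOMO without overlap, whereas the HOMO levels of *Dhrs3* lay inside its WT range.

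**Figure D4:**
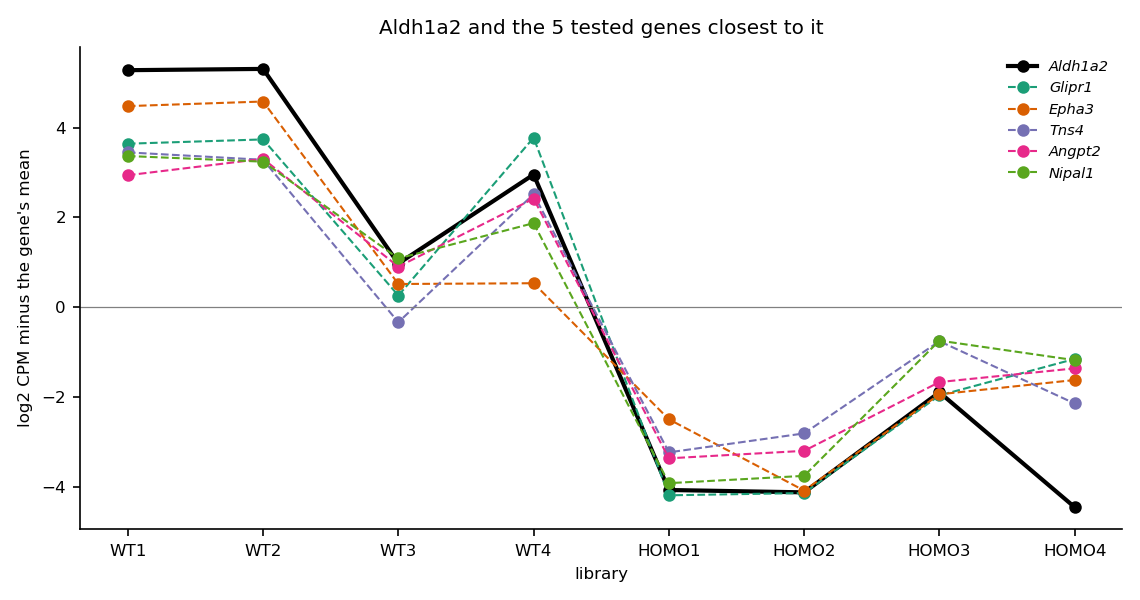
Log2 CPM (prior count 2) of *Aldh1a2* and the 5 genes most like it in each library, after each gene's mean over the 8 libraries was taken away. All 6 genes lie higher in WT1 and WT2 than in WT3, and *Aldh1a2* has its lowest point in HOMO4 (0.150 CPM).

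Neither of the tested genes that flank *Aldh1a2* on chromosome 9 was called. *Adam10*, at a distance of 435559 bases, had a log2 fold change of 0.10 (SE 0.14, edgeR adjusted p = 0.673), and *Polr2m*, at 182193 bases, one of 0.10 (SE 0.11, edgeR adjusted p = 0.567). Next to *Aldh1a3*, *Lrrk1* had a log2 fold change of 0.50 (SE 0.17, edgeR adjusted p = 0.0883) and *Asb7* one of −0.10 (SE 0.16, edgeR adjusted p = 0.721). Next to *Cyp26b1*, *Exoc6b* had one of 0.04 (SE 0.22, edgeR adjusted p = 0.915).

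Markers of the cell types that a lung explant could hold were measured beside these genes. All 8 fibroblast markers were tested, at a summed level of 12367 to 16007 CPM in WT and 13698 to 23971 CPM in HOMO, and of these *Vim* was called as lower. Mesothelial cells line the lung and are known to express *Aldh1a2*. The sum of their 10 markers was 112 to 286 CPM in WT and 267 to 388 CPM in HOMO. It was 112 CPM in WT1 and 112 CPM in WT2, the libraries with the highest *Aldh1a2* levels, and 286 CPM in WT3, the WT library with the lowest. Of the 9 tested mesothelial markers, *Wt1* (log2 fold change 3.36, edgeR adjusted p = 0.0166) and *Bnc1* (1.73, edgeR adjusted p = 0.0219) were called as higher in HOMO. *Bnc1* was the largest part of the HOMO sum, at 135 to 170 CPM. The other tested mesothelial markers were not called and did not share a direction. *Krt19* was measured at 35.4, 28.4, 3.27 and 0.580 CPM in WT1 to WT4 and 2.67, 1.24, 2.13 and 2.10 CPM in HOMO1 to HOMO4 (log2 fold change −3.06, SE 1.05, edgeR adjusted p = 0.0856). Its highest levels were in WT1 and WT2, as for *Aldh1a2*. The defining *Msln*, *Upk3b* and *Lrrn4* had log2 fold changes of −0.52, 0.09 and 0.22. Those of *Upk1b*, *Krt18* and *Gpm6a* were −0.62, 0.66 and 1.70. The 5 lipofibroblast markers summed to 165 to 633 CPM in WT and 1018 to 1804 CPM in HOMO, and most of the HOMO sum was *Lpl*, also on the retinoid list and the one of the 5 that was called. The log2 fold changes of the other 4 were below 0, at −2.39 for *Tcf21*, −1.65 for *Fgf10*, −0.44 for *Plin2* and −0.19 for *Pparg*, and none of these 4 was called (edgeR adjusted p = 0.0619, 0.136, 0.492 and 0.836). The 6 smooth muscle and pericyte markers summed to 753 to 2507 CPM in WT and 197 to 1396 CPM in HOMO, with *Rgs5* lower in HOMO. Like *Aldh1a3*, their sum was higher in HOMO3 and HOMO4 (1396 and 1371 CPM) than in HOMO1 and HOMO2 (197 and 204 CPM). Most of it was *Acta2*, at 742 to 2414 CPM in WT and 190 to 1361 CPM in HOMO, which was not called. The 6 immune markers summed to 21.8 to 178 CPM in WT and 9.62 to 45.9 CPM in HOMO, with the highest levels in WT3 and WT4 and 0 of 4 tested markers called. The 7 epithelial markers were low, at 0.225 to 1.55 CPM in WT and 1.60 to 14.5 CPM in HOMO, with *Cdh1* called as higher, and the 5 endothelial markers summed to 1.33 to 4.29 and 1.42 to 4.10 CPM with none called. No defining marker of these 7 lists was at 3 or fewer counts in every library. The part of these markers in the differences of the retinoid genes was not tested.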

How the data were processed

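The 9 genes, the wider retinoid list and the marker lists were chosen with earlier results of these data known. Poly(A) RNA of the pFBs was sequenced as paired ends. The authors used fastp for trimming, STAR for the alignment to mm10 and featureCounts for counting, and the deposited values are their raw, unscaled counts per gene, in a table whose name marks an outlier as taken out. Whether that refers to a library, and the strand setting of the counting, are not given in the sources used here. Of 54532 entries, 53877 were matched to GENCODE M21 for positions and exon lengths. All 8 libraries were used, and 0 columns were left aside.

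Counts were fitted with edgeR 4.0.16 in R 4.3.3 (TMM, filterByExpr by genotype, two-sided quasi-likelihood F test, Benjamini-Hochberg adjustment over 14150 genes). DEGs had to pass 0.05 in adjusted p and 0.6 in the size of the log2 fold change. SE was taken as that size over the square root of F, and a prior count of 2 was used for log2 CPM. Levels per length divide CPM by the union of exons. Named were the 9 genes, wider genes called or above 10 CPM in a genotype, wider genes without counts, the 5 genes most like *Aldh1a2*, flanking genes and 47 markers of 7 cell types. A gene of the wider list that meets this rule is counted but not reported here. The fit was also run on simulated data. The outcome of that run is not given here, and the run is not taken as a check on a design with near-identical libraries. Alternatives were DESeq2 1.42.0, limma-voom with sample quality weights (limma 3.58.1), RLE factors, no filter, CPM above 1 in at least 4 libraries, the replicate number as a block, near-identical libraries summed, each library left out, and the longest transcript as length. Python 3.11.15, numpy 2.4.6, pandas 2.3.3 and matplotlib 3.10.9 made the tables and figures. With 4 libraries per genotype, of which 3 pairs are near-identical, the precision is that of 5 units.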

Additional observations from a re-analysis of the deposited data

Results flagged for a closer look

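By Dixon's test, 6 of 48 groups of 4 libraries held a library far from the other 3. The groups were each of the 9 genes, named genes of the wider list, the shares of *Aldh1a2* and *Rarg*, and the family sums, by genotype. The test flags about 1 group in 20 by chance when the 4 values are independent. With near-identical libraries in each genotype that rate does not apply here, so the number flagged is only a description. In WT it was WT3 each time. *Crabp1* stood at 3.95 log2 CPM in WT3 and at −3.49 in each of the other WT libraries, which are ties at 0 counts. *Cyp26b1* stood at 3.20 log2 CPM in WT3 against 6.08 to 6.53 in the others, and *Rarres1* at 2.45 against 5.82 to 6.21. In HOMO it was HOMO3 each time. *Aldh1a2* stood at 0.49 log2 CPM in HOMO3 against −2.06 to −1.68 in the others, and its share of the summed level of the retinal dehydrogenases was 0.454% against 0.0346 to 0.0460%. The share of *Rarg* in the summed level of the RARs was 67.8% in HOMO3 against 69.2 to 69.5%. HOMO3 was near-identical to HOMO4 over all genes, yet *Aldh1a2* was counted 26 times in HOMO3 and 3 times in HOMO4. Some epithelial markers with few counts parted these libraries too. *Sftpc* was counted 99 times in HOMO3 and 3 times in HOMO4, and *Scgb1a1* 130 times and 1 time. *Epcam* went the other way, at 0 and 45 counts. HOMO2, with 7 counts of *Aldh1a2*, held 48 of *Sftpc* and 110 of *Scgb1a1*. How these relate was not tested.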

How the results depend on the processing

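The sign of the log2 fold changes of *Aldh1a1*, *Aldh1a2*, *Aldh1a3*, *Cyp26b1*, *Rarb* and *Rarg* held in all 15 alternatives, while *Dhrs3* lay on either side of 0. *Aldh1a2* was called in 14 of the 15, *Aldh1a1* in 8, *Aldh1a3* in 7 and *Cyp26b1* in 4. As the genes were selected on this contrast, these counts describe the fits only. *Rxra* was the named wider gene that turned, to −0.0073 without WT1, with 0.19 without WT4 at the other end. DESeq2 called 2913 DEGs and limma-voom with sample weights 3573, against 1716 by edgeR, and limma-voom called 5 of the retinoid genes, *Cyp26b1* and *Dhrs3* included. With near-identical libraries summed, 0 DEGs, 0 of the 9 genes and 0 of the wider list were called. Leaving out each library gave 507 to 2192 DEGs, 1 to 4 of the 9 genes and 1 to 8 of the wider list. The cause of these differences was not tested. The replicate number as a block (the pairing of WT and HOMO by number) called 947 DEGs, 1 of the 9 genes (*Aldh1a2*) and 3 of the wider list (*Lpl*, *Meis1* and *Meis2*). Same-numbered libraries did not deviate together (r from −0.124 to 0.014 across genes, which are not independent replicates), no library correlated best with its own number, and the number is taken only as a name. With the longest transcript as length, the mean share of *Aldh1a2* in WT was 24.4% in place of 36.7%, *Aldh1a1* led in WT1 and WT2, and the share of *Rarg* in HOMO was 71.0% in place of 68.9%. Depth limits *Crabp1*, *Crabp2*, *Cyp26a1* and *Aldh1a2* in HOMO, which rest on few counts, and the 5 separate units limit the rest.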

Other observations

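The genes of this paragraph were named after their values were seen. *Rarb* was followed closely over the 8 libraries by *Hjurp*, a chaperone of the centromeric histone (root mean square difference of 0.173 in mean-centred log2 CPM), and by *Myc* (0.195). *Hjurp* was measured at 235, 220.2, 48.6 and 50.3 CPM in WT1 to WT4 and 203, 192, 286 and 275 CPM in HOMO1 to HOMO4, so that, as in *Rarb*, WT3 and WT4 were the low libraries and HOMO3 and HOMO4 the high ones. *Myc* was measured at 88.4, 73.8, 21.3 and 19.4 CPM in WT and 50.3, 57.1, 123 and 102 CPM in HOMO. These distances describe 8 libraries, of which 3 pairs are near-identical.

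*Rarres2*, which encodes chemerin, was counted 127 times in WT3 and at most 8 times in each of the other libraries, the same library that held nearly all reads of *Crabp1*. *Rbp2*, the retinol carrier of the gut, was counted 78 times in HOMO4, once in WT1 and not at all in the other 6 libraries, and *Epcam* was counted 45 times in HOMO4 and at most once elsewhere. *Ireb2*, next to *Crabp1* on chromosome 9, was called as higher in HOMO (log2 fold change 0.66, SE 0.17, edgeR adjusted p = 0.0391).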
